A study of Mus musculus with 12 samples.

Results

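The fatty acid desaturase and elongase genes described here are Scd1, Scd2, Fads1, Fads2, Fads3, Elovl1, Elovl5 and Elovl6, taken by gene symbol from the expression files of mouse CD4+ T cells, 8 of 23700 listed loci. They were chosen with the difference between Bach2-deficient and wild type cells already known, so that difference is given for them as a description without a test. Every one of the 8 stood higher in each of 3 Bach2KO iTreg libraries than in each of 3 WT iTreg libraries. The same held for 43.4% of all loci tested between the genotypes. Among the 8, the distance was widest for Fads2, Scd1 and Scd2, which averaged 99.6, 65.9 and 20.2 times their WT level, and smallest for Elovl5 at 1.16 times. Fads2 was close to the limit of detection in WT iTreg cells and Scd1 averaged only 0.658 FPKM there, so their ratios are uncertain. The sign of the Elovl5 difference depended on scaling. Scd1, Scd2, Fads1 and Fads2 were also high in the Th1, Th2 and Th17 libraries and low or listed at 0 in fresh naive cells. Bach2 peaks in WT iTreg cells lay within 50 kb of 7 of the 8 loci, with none near Elovl1. Of all loci tested between the genotypes, 84.5% had a peak at that distance.

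Desaturases and elongases of the endoplasmic reticulum set the double bonds and the chain length of fatty acids before these are built into membrane and storage lipids. The stearoyl-CoA desaturases make monounsaturated fatty acids from saturated ones, and Fads1 and Fads2 act on polyunsaturated fatty acids. Each Elovl enzyme starts an elongation cycle on its own range of acyl-CoAs. Many of these genes are targets of the sterol regulatory element-binding proteins (SREBPs), and activated T cells are known to raise lipid synthesis before they divide.

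The study asked how the transcriptional repressor Bach2 acts in induced regulatory T (iTreg) cells. All cells came from spleen and lymph nodes of C57BL/6J mice and started as sorted naive CD4+CD44-CD25-CD62L+ T cells. Bach2KO and WT iTreg cultures (3 libraries each) received 100 IU/ml IL-2 and 5 ng/ml human TGF-β1. WT Th1 cells (1 library) received 20 ng/ml IL-12 with neutralizing antibody to IL-4, and WT Th2 cells (1 library) received 20 ng/ml IL-4 with neutralizing antibody to IFN-γ. WT Th17 cells (1 library) received 20 ng/ml IL-6 and 2 ng/ml human TGF-β1 with neutralizing antibodies to IL-4 and IFN-γ. Each neutralizing antibody was at 10 μg/ml. All cultures ran for 3 days on bound anti-CD3 and anti-CD28 at 10 μg/ml, and the naive WT library (1) was made from fresh cells. Bach2 binding was mapped in WT iTreg cells with 1 chromatin immunoprecipitation (ChIP) library against 1 input. The labels name the genotype only as Bach2KO, without the deleted part, and do not give from which animals or cultures the replicates came, so p-values measure only the spread between these libraries, which may be technical.

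RNA was measured as FPKM, read fragments scaled by transcript length and library size. Bach2 itself stood at 3.91, 3.39 and 4.12 FPKM in the Bach2KO libraries and at 17.9, 17.7 and 17.2 FPKM in the WT iTreg libraries. Reads implied by the deposited confidence bounds were summed over loci with a single listed transcription start and a lower bound above 0. These partial sums came to 20.0 to 24.0 M in Bach2KO, 18.2 to 19.1 M in WT iTreg and 12.3 to 18.5 M in the single libraries. Differences were taken on log2(FPKM + 0.5), which understates changes of genes near 0, and the 11403 loci that averaged 0.5 FPKM or more in the 6 iTreg libraries were tested with limma. Of these, 8510 (74.6%) were called at an adjusted p under 0.05 (Benjamini-Hochberg), 4682 higher (41.1%) and 3828 lower (33.6%) in Bach2KO. That split depended on scaling: with FPKM sums made equal it was 3268 higher and 5378 lower, with quantile normalization 3685 and 4859, and with median-of-ratios scaling 4279 and 4276. The median difference of all tested loci was 0.07 with the authors' scaling, -0.18 with equal sums, -0.09 with quantile normalization and 0.00 with median-of-ratios scaling. Every T cell identity marker of a list of 8 was above 0 in every library (2 rose, 4 fell and 2 were not called between genotypes, list median -0.19). In bulk RNA, fewer cells that hold a transcript and less of it per cell cannot be told apart.

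The stearoyl-CoA desaturase genes lie together on chromosome 19 (mm9). Scd1 spans 44468940 to 44482199 on the minus strand and Scd2 44368166 to 44381352 on the plus strand. Fads1 (10257378 to 10271362, plus strand), Fads2 (10138654 to 10175993, minus strand) and Fads3 (10116038 to 10134161, plus strand) form a second cluster on the same chromosome. Elovl1 lies on chromosome 4 (118100698 to 118105521), Elovl5 on chromosome 9 (77765172 to 77832326) and Elovl6 on chromosome 3 (129235304 to 129341411), all on the plus strand.

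The authors' list of 22494 Bach2 peaks placed 26 distinct peaks within 50 kb of these loci. A peak that close was listed for 7 of 8 members, against 64.5% of all loci and 84.5% of the loci tested in iTreg cells. Loci called higher and loci called lower in Bach2KO had one at nearly the same rate, 85.7% and 84.0%, so a peak within this distance was the common case. Scd2 had 9 such peaks and Elovl5 6, beside a median of 2 per tested locus, of which 9.47% had 7 or more. Elovl6 had 5, Scd1 3, Fads2 and Fads3 the same 2, Fads1 1 and Elovl1 0, also within 100 kb. The window runs from the edges of each locus, so long loci such as Elovl5 and Elovl6 cover more sequence. Measured from the gene starts, 20 peaks lay within 50 kb in place of 26. For Elovl6 the nearest summit lay 3966 bp after the start and the next 58591 bp after it. At the edge of the window, peaks of Scd2 lay 44685 bp (inside) and 56636 bp (outside) from the locus, and peaks of Fads3 41997 bp and 56844 bp.

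The peaks ranged widely in strength, by the score and fold enrichment over input that the authors' peak caller MACS assigned. The median over all peaks was a score of 105.24, which is -log10 of the peak's p multiplied by 10, and a fold of 12.84. The strongest peak near a member lay in an intron of Elovl5, 37309 bp after the gene start, with a score of 1178.11, a fold of 56.6 and rank 605. The strongest near Scd2 lay upstream of its start, at -12813 bp (score 926.42, fold 28.08, rank 941). Near Scd1, a peak 32 bp beyond the 3′ end had a score of 452.99 and a fold of 27.61, and a broader one farther downstream a score of 673.59. In an intron of Elovl6, 58591 bp after the start, a peak reached a score of 670.79 and a fold of 53.78. The Fads genes had weaker ones, although the peak nearest to any member's start was the one 709 bp upstream of Fads2 (score 112.22, fold 12.45, rank 10602). The only peak near Fads1 lay 9327 bp upstream with a score of 85.39.

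The 201 bases centred on a summit were searched on both strands for TGAGTCA, the core bound by AP-1 and held in the longer sites of Bach2 with small Maf proteins. It occurred in 8 of 26 peaks near the members (30.8%), in 38.6% of all peaks and in 49.8% of the 5624 peaks with the highest scores. Below is the strongest peak of each gene except Fads3, which shares that of Fads2, and Elovl1, which has none, with a second Scd1 peak added because the core lies at its summit, as the mm9 plus strand from 5′ to 3′, with TGAGTCA or its reverse complement TGACTCA in capitals. The windows are chr9:77802381-77802581 for Elovl5, chr19:44355253-44355453 for Scd2, chr19:44461693-44461893 for the strongest Scd1 peak, chr19:44468576-44468776 for the Scd1 peak at the 3′ end, chr19:10247951-10248151 for Fads1, chr19:10176602-10176802 for Fads2 and chr3:129293795-129293995 for Elovl6.
Elovl5 intronic peak: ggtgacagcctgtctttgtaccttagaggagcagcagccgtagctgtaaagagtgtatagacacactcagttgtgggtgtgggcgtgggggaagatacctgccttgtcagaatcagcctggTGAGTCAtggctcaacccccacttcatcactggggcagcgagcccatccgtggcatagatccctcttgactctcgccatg
Scd2 upstream peak: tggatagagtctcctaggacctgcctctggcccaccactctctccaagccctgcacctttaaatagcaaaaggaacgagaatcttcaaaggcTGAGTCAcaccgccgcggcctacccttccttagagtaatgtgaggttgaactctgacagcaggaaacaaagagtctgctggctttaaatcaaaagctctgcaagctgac
Scd1 strongest peak: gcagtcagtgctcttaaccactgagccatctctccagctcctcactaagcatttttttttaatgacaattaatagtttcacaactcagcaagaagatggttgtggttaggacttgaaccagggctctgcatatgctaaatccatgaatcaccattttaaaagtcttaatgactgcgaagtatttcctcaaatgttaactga
Scd1 3′ peak: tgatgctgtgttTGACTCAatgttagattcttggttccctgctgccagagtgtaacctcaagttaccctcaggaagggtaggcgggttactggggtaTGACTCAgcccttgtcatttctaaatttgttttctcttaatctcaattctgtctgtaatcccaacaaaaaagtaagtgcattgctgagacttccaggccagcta
Fads1 upstream peak: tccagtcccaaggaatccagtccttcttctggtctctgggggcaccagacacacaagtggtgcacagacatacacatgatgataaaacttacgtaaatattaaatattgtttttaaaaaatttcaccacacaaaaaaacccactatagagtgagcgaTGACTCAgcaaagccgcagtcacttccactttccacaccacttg
Fads2 start-proximal peak: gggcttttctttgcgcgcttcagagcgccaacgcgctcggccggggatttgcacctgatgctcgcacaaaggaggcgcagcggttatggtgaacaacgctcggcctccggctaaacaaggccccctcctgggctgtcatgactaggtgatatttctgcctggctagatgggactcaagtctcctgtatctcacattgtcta
Elovl6 intronic peak: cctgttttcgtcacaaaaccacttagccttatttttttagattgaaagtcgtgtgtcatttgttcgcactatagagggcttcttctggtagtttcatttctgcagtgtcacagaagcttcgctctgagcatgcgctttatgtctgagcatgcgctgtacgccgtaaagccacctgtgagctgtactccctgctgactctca
The Scd1 3′ peak held 2 copies of the core, one of them centred on the summit. The nearest copy lay 5 bp from the summit in the Scd2 peak, 24 bp in the Elovl5 peak and 60 bp in the Fads1 peak. The strongest Scd1 window and the Fads2 and Elovl6 windows held none, which says only that these letters are not in these 201 bases. A match in a window is a description of the sequence.

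**Figure D1:**
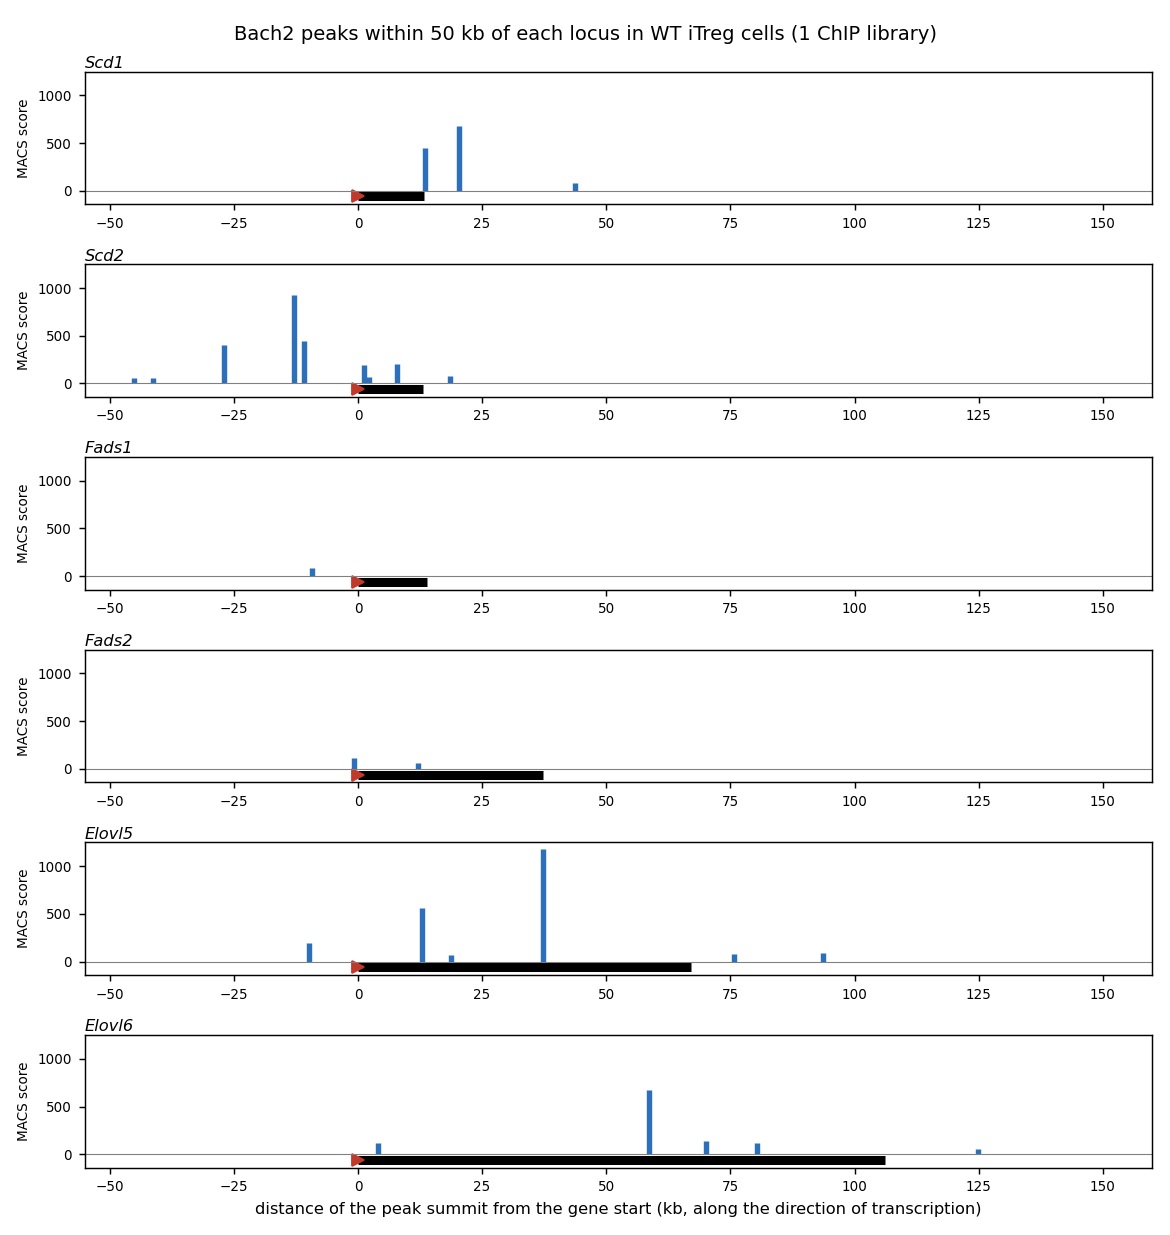
Bach2 peaks within 50 kb of 6 of the loci in WT iTreg cells (1 ChIP library). The horizontal axis is the distance of the summit from the gene start in kb along the direction of transcription, the height is the authors' MACS score, the black bar is the gene and the red arrow its start. The tallest peaks stood within Elovl5 (1178.11) and upstream of Scd2 (926.42), and the Fads genes had peaks of at most 112.22.

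Scd1 and Scd2 showed, with Fads2, the widest distance between genotypes, and Scd2 had the highest FPKM of the 8 genes in the Bach2KO and helper libraries, while Elovl5 had it in WT iTreg and naive cells. Scd1, which makes oleate and palmitoleate and is the main form in liver and fat, had 44.3, 30.2 and 55.7 FPKM in Bach2KO against 1.07, 0.351 and 0.556 FPKM in WT iTreg libraries. The lowest Bach2KO library was thus far above the highest WT library. The means were 43.4 ± 12.7 FPKM in Bach2KO and 0.658 ± 0.370 FPKM in WT (SD, n = 3 each), a difference of 5.25 on the log2 scale (SE 0.299). Scd1 stood at 35.6 FPKM in the Th1 library, 43.5 in Th2 and 8.53 in Th17 cells and at 0.0523 FPKM in naive cells, where about 8 reads were implied.

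Scd2, the stearoyl-CoA desaturase with wide expression that is prominent in brain and during development, had 302.8, 240.9 and 353.0 FPKM in Bach2KO against 14.3, 12.4 and 17.6 FPKM in WT iTreg libraries. Its means were 298.9 ± 56.2 FPKM in Bach2KO and 14.8 ± 2.61 FPKM in WT (SD, n = 3 each), a log2 difference of 4.29 (SE 0.177). It reached 384.9 FPKM in the Th1 library, 456.1 in Th2 and 158.5 in Th17 cells, against 8.35 FPKM in naive cells. Scd2 was thus detectable in every library, whereas Scd1 came close to 0 in WT iTreg and naive cells.

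Scd2 made up most of the summed FPKM of Scd1 to Scd4 in every library, a comparison per length of transcript. The Scd1 share was 12.4, 10.8 and 13.3% in Bach2KO and 6.69, 2.65 and 2.98% in WT iTreg libraries, and it was 8.24% in Th1, 8.48% in Th2, 4.97% in Th17 and 0.606% in naive cells. Scd3 and Scd4, close relatives in the same cluster, rose in Bach2KO. Scd3 averaged 6.73 ± 1.31 FPKM in Bach2KO and 0.300 ± 0.0255 FPKM in WT (SD, n = 3 each), 3.16 higher on the log2 scale (SE 0.143, limma adjusted p = 9.68e-06), and Scd4 3.07 ± 0.538 FPKM in Bach2KO and 0.209 ± 0.0347 FPKM in WT, 2.32 higher (SE 0.135, limma adjusted p = 2.30e-05). Only uniquely mapped reads were used by the authors, and how reads shared by these paralogs would have been split is uncertain.

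A 61-bp microRNA locus, Mir5114, is annotated within the last exon of Scd2 and carried the highest FPKM of any locus in 6 libraries. It stood at 46868, 34219 and 65946 FPKM in Bach2KO against 3810, 1112 and 2238 FPKM in WT iTreg libraries, and at 20786 in Th1, 32016 in Th2, 14416 in Th17 cells, and it was listed at 0 in naive cells. In Bach2KO it made up 6.18 to 12.1% of the summed FPKM. Reads of Scd2 and of this locus cannot be told apart in these values, and FPKM of loci about as short as a read is not on the scale of whole genes.

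The Fads genes differed widely among themselves, with means in Bach2KO at 99.6 times the WT mean for Fads2, 7.57 times for Fads3 and 3.13 times for Fads1. Fads2, the front-end desaturase of the first step from linoleate and α-linolenate, had 29.9, 26.1 and 36.3 FPKM in Bach2KO against 0.388, 0.420 and 0.118 FPKM in WT iTreg libraries. The WT values rest on about 16, 17 and 5 implied reads, and those in Bach2KO on 1115 to 1453. Means were 30.8 ± 5.13 FPKM in Bach2KO and 0.309 ± 0.166 FPKM in WT (SD, n = 3 each), a log2 difference of 5.28 (SE 0.192). Fads2 stood at 33.8 FPKM in the Th1 library, 36.0 in Th2 and 15.8 in Th17 cells and was listed at 0 in naive cells.

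Fads1, which acts later in the same path and yields arachidonate, varied less among WT replicates, relative to its mean, than any other member. It had 17.0, 17.1 and 18.3 FPKM in Bach2KO against 5.61, 5.61 and 5.54 FPKM in WT iTreg libraries, with means of 17.5 ± 0.723 FPKM in Bach2KO and 5.59 ± 0.0376 FPKM in WT (SD, n = 3 each) and a log2 difference of 1.56 (SE 0.0475). It stood at 17.4 FPKM in Th1, 19.7 in Th2, 12.7 in Th17 and 2.65 in naive cells. The ratio of Fads2 to Fads1 FPKM was 1.75, 1.53 and 1.98 in Bach2KO and 0.0692, 0.0750 and 0.0213 in WT iTreg libraries. It was 1.95 in the Th1 library, 1.83 in Th2 and 1.25 in Th17 cells, so Fads2 exceeded Fads1 in the Bach2KO and helper libraries and was far below it in WT iTreg and naive cells.

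Fads3, a relative that desaturates sphingoid bases, was near the limit of detection everywhere. It had 0.204, 0.150 and 0.191 FPKM in Bach2KO against 0.0103, 0.0316 and 0.0302 FPKM in WT iTreg libraries, and 0.400 in Th1, 0.439 in Th2 and 0.0839 FPKM in Th17 cells, and it was listed at 0 in naive cells. The authors' confidence bounds, which cover counting error only, did not overlap between genotypes, with a lowest bound of 0.0723 FPKM in Bach2KO and a highest bound of 0.0680 FPKM in WT. Its mean lay under the 0.5 FPKM filter, so 7 of 8 members entered the fit.

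The elongases differed less between genotypes. Elovl1, which extends saturated and monounsaturated very long chains, had 42.8, 45.6 and 39.8 FPKM in Bach2KO against 19.5, 18.5 and 21.8 FPKM in WT iTreg libraries. Its means were 42.7 ± 2.90 FPKM in Bach2KO and 19.9 ± 1.71 FPKM in WT (SD, n = 3 each), a log2 difference of 1.08 (SE 0.0793). It was the one member whose 3 Bach2KO values all exceeded every helper library, with 26.6 FPKM in the Th1 library, 28.3 in Th2 and 31.8 in Th17 cells and 14.4 in naive cells. The proliferation gene Cdc20 overlaps its 3′ end and was higher in Bach2KO by 3.44. The overlap, from 118105506 to 118105521, is shorter than a 50-bp read, and the values do not tell its reads apart.

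Elovl6, which extends palmitate to stearate and so supplies the substrate of Scd1 and Scd2, had 6.26, 5.36 and 7.72 FPKM in Bach2KO against 3.99, 4.29 and 4.003 FPKM in WT iTreg libraries. Its means were 6.45 ± 1.19 FPKM in Bach2KO and 4.09 ± 0.171 FPKM in WT (SD, n = 3 each), a log2 difference of 0.58 (SE 0.127). Its levels in Th1 (11.6 FPKM) and Th2 cells (23.0 FPKM) lay above all iTreg libraries, with 7.68 FPKM in Th17 and 2.31 in naive cells. Of the 3 Bach2KO values, 2 were below the lowest helper library.

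Elovl5, which extends polyunsaturated fatty acids, was high in every library. It had 71.2, 65.2 and 71.8 FPKM in Bach2KO against 60.1, 58.6 and 61.1 FPKM in WT iTreg libraries. Its means were 69.4 ± 3.68 FPKM in Bach2KO and 59.9 ± 1.27 FPKM in WT (SD, n = 3 each), a log2 difference of 0.21 (SE 0.0497) that turned to -0.06 with equal FPKM sums and -0.05 with quantile normalization. It stood at 72.9 FPKM in Th1, 69.8 in Th2, 41.2 in Th17 and 42.1 in naive cells. Relative to the median of all tested loci its difference was 0.14, and that of Elovl6 was 0.51 and of Elovl1 1.01.

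**Figure D2:**
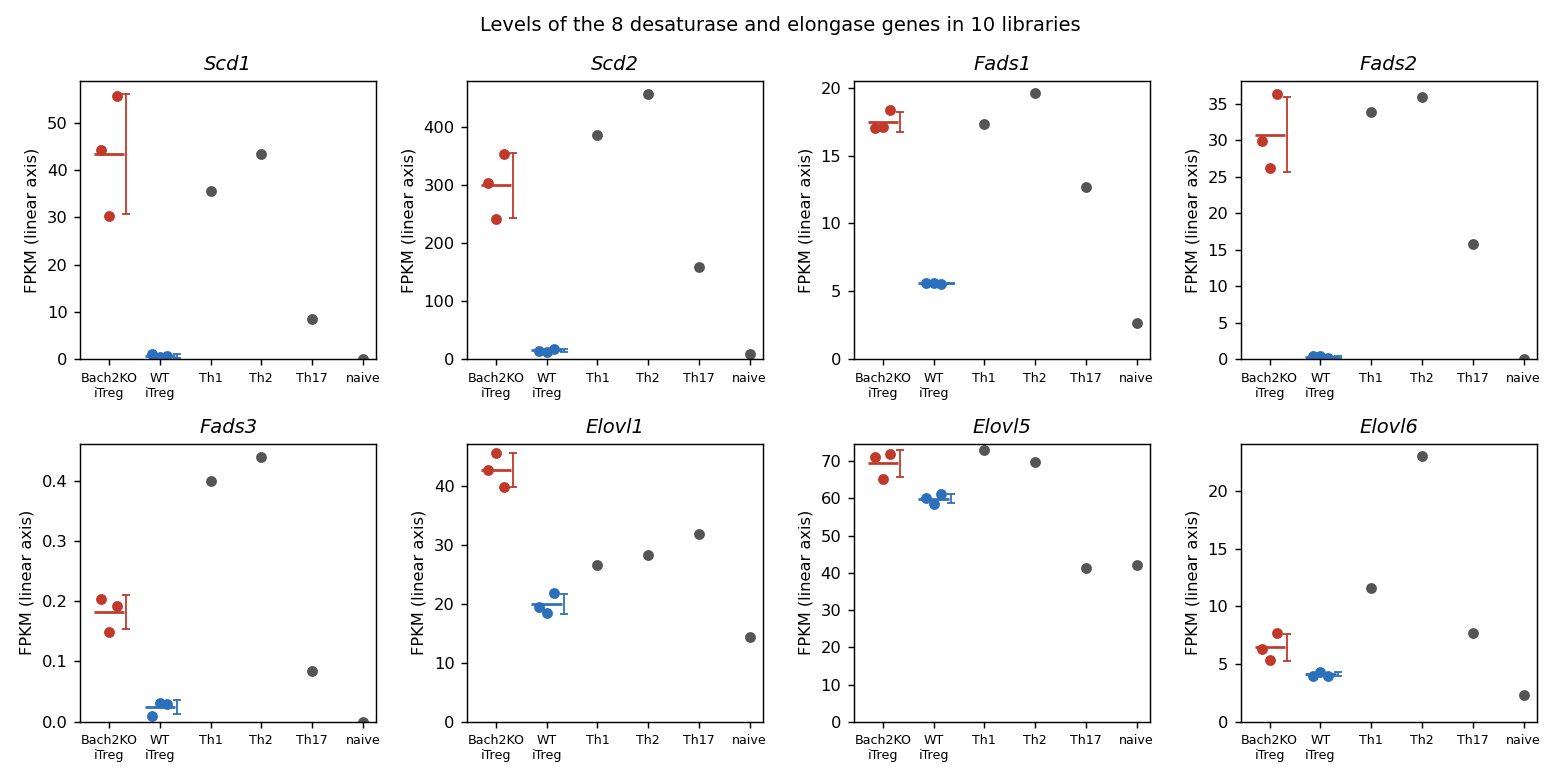
FPKM (linear axis from 0, with its own scale in each panel) of the 8 genes in Bach2KO iTreg, WT iTreg, Th1, Th2, Th17 and naive cells. Points are libraries, horizontal lines the means of 3 libraries and bars 1 SD. All Bach2KO points lie above all WT iTreg points, and the gap is narrow only for Elovl5 and Elovl6.

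Without overlap between genotypes, 7 of 7 tested members were higher in Bach2KO, where 43.4% of all tested loci had every Bach2KO value above every WT value and 79.4% had no overlap in either direction. The members were chosen with this contrast known, so nothing is read from that count. Within Bach2KO, replicate 2 held the lowest value of 6 of 8 members and replicate 3 the highest of 6 of 8, while 39.5% of all tested loci were lowest in replicate 2 and 34.4% highest in replicate 3. Foxp3, the Treg lineage factor, was at 7.68, 19.7 and 5.81 FPKM in Bach2KO and at 69.6, 66.7 and 81.1 FPKM in WT iTreg libraries. The Bach2KO library with the most Foxp3 was thus the one with the lowest Scd1, Scd2 and Fads2. Without that library the Scd1 difference was 5.48.

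Markers of other cell types and of division were read beside these values. All 10 listed proliferation genes rose in Bach2KO (list median 3.50), and their summed FPKM was 1180 to 1308 in Bach2KO and 135 to 158 in WT iTreg libraries, 737 to 1133 in the helper libraries and 136 in naive cells. Their sum was thus low in the same libraries as Scd1, Scd2 and Fads2, but the naive sum was mostly Pcna. Pcna stood at 96.8 FPKM in naive cells and averaged 56.2 FPKM in WT iTreg cells, and Mcm2 at 16.8 and 11.9 FPKM. Each other listed gene was lower in the naive library than in every WT iTreg library. Ccna2 stood at 0.276 FPKM in naive cells against a WT iTreg mean of 6.85 FPKM, and Ccnb1 at 0.124 against 4.04 FPKM. The part of the proliferation genes in the members' levels was not tested. Of the 9 B cell markers, 8 were tested, 2 fell, none rose and 6 were not called. Their sum was 38.0, 24.0 and 36.2 FPKM in Bach2KO and 114.3, 17.2 and 59.1 FPKM in WT iTreg libraries, and WT replicate 1, with the highest sum, also had the highest Scd1 in WT. Without that library the Scd1 difference was 5.49.

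Of 10 myeloid markers, 2 were tested and both fell, with sums of 0.287 to 0.737 FPKM in Bach2KO and 6.91 to 8.06 FPKM in WT and with Lyz1, S100a8 and S100a9 at 0. Of 6 CD8 and NK cell markers, 5 were found, 2 were tested and both rose, with sums of 11.1 to 12.1 FPKM in Bach2KO and 4.51 to 5.46 FPKM in WT and with Klra1 at 0. Of 9 adipocyte and hepatocyte markers, 1 was tested and not called, with sums of 0.406 to 0.874 FPKM in Bach2KO and 1.08 to 1.21 FPKM in WT and with Lep, Cfd and Ttr at 0. Of 6 lineage markers of the cultures, 2 rose, 3 fell and 1 was not called.

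Cultured cells were set against the fresh naive library by the same log2 scale, without a test since that library has no replicate. In Th1 and in Th2 cells 5 of 8 members passed 2-fold higher, against 29.1% of 11322 and 27.6% of 11234 loci that averaged 0.5 FPKM or more over the groups compared, a filter that Fads3 did not pass. In Th17 cells 6 of 8 did, against 24.5% of 11169 such loci, and in WT iTreg cells 1 of 8, against 17.1% of 10953, a filter there also not passed by Scd1 and Fads2. None of the 8 passed 2-fold lower, where 9.87% of such loci did in Th1, 11.8% in Th2, 7.52% in Th17 and 3.82% in WT iTreg cells. The Th17 count was 5 with equal FPKM sums or median-of-ratios scaling and 4 with quantile normalization. Under these scalings the Th1 and Th2 counts stayed at 5. The WT iTreg count rests on Scd1, which was 1.02 above naive at under 0.5 FPKM on average over both groups.

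Scd1 exceeded the naive level by 6.03 in the Th1 library, by 6.32 in Th2 and by 4.03 in Th17 cells. Fads2 exceeded it by 6.10 in the Th1 library, by 6.19 in Th2, by 5.03 in Th17 and by 0.67 in WT iTreg cells. Scd2 exceeded it by 5.44 in the Th1 library, by 5.69 in Th2, by 4.17 in Th17 and by 0.77 in WT iTreg cells. On this scale the WT iTreg cells, stimulated for the same 3 days, were thus 0.67 to 1.02 above naive for these 3 genes, at levels where Scd1 and Fads2 changes are understated. Fads1 was 2.50 above naive in Th1 and 0.95 in WT iTreg cells, and Elovl6 3.07 above naive in Th2 and 0.71 in WT iTreg cells. Elovl1 exceeded naive by 0.86 in the Th1 library, by 0.95 in Th2, by 1.12 in Th17 and by 0.45 in WT iTreg cells. Elovl5 was 0.03 under naive in Th17 cells.

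**Figure D3:**
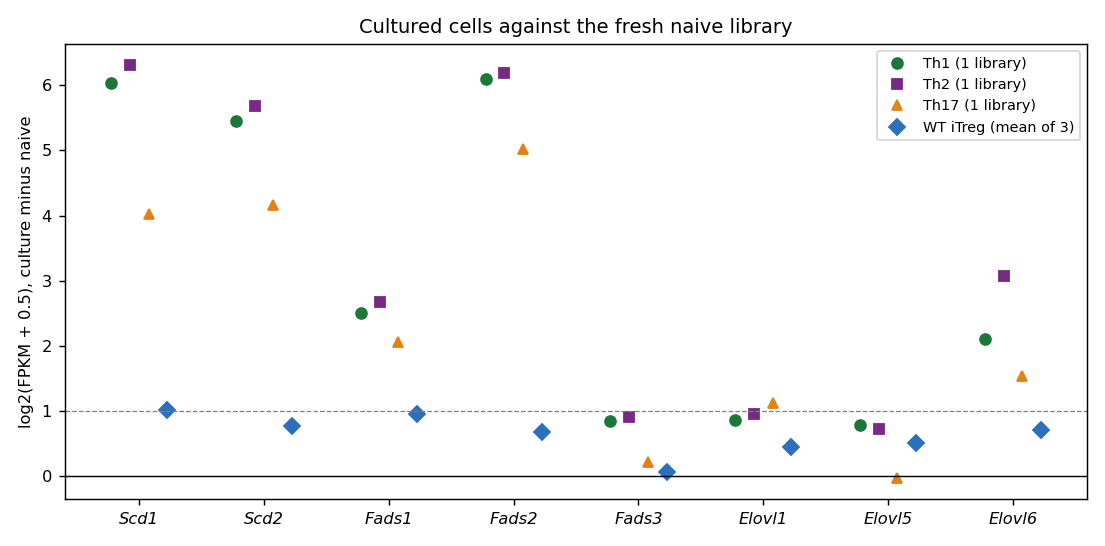
Difference of log2(FPKM + 0.5) between each culture and the single naive library for the 8 genes. Circles are Th1, squares Th2, triangles Th17 (1 library each) and diamonds the mean of 3 WT iTreg libraries, and the dashed line marks 2-fold. Scd1, Scd2 and Fads2 lie at 4.03 or more in the helper libraries and at 1.02 or less in WT iTreg cells.

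Ordered by level, Scd2, Fads2 and Fads3 ran Th2, Th1, Bach2KO iTreg, Th17, WT iTreg and naive, and Scd1 and Fads1 the same with Bach2KO iTreg before Th1. For Scd1 and Fads2 the Th1 and Th2 values fell inside the range of the 3 Bach2KO libraries, and for Fads1 the Th1 value did, so these neighbours do not differ beyond that spread. For Scd2 and Fads3 both helper values lay above the Bach2KO range. The Th17 value was under every Bach2KO value and above every WT iTreg value for these 5 genes. Elovl1 ran Bach2KO iTreg, Th17, Th2, Th1, WT iTreg and naive. Elovl6 ran Th2, Th1, Th17, Bach2KO iTreg, WT iTreg and naive, with Th17 inside the Bach2KO range. Elovl5 ran Th1, Th2, Bach2KO iTreg, WT iTreg, naive and Th17, with Th2 inside the Bach2KO range, Th1 within 1 SD of the Bach2KO mean, and naive and Th17 less than 1 FPKM apart. For each of the 8 genes the naive value was under every WT iTreg value.

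Loci with the most similar pattern were found as the smallest root mean square difference between log2 profiles, each centred on its mean, over the 10 libraries. For Scd1 they were Fads2 (0.471), Scd2 (0.530) and Tigit (0.576), an inhibitory receptor gene. For Scd2 they were Tpi1 (0.290), a glycolytic enzyme gene, Tigit (0.339) and Pgk1 (0.345), another one. Fads2 was nearest to Tpi1 (0.447), Scd1 (0.471) and Tigit (0.502). Scd1, Scd2 and Fads2 thus lay within 0.530 of each other, and the nearest other member was Fads1, at 1.38 from Scd2.

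Fads1 was nearest to Chek2 (0.110), Dsn1 (0.111) and Rdbp (0.131), genes of checkpoint signalling, the kinetochore and transcript elongation. Elovl1 was nearest to Atp5g3 (0.0574), Rbm3 (0.0631) and Bub3 (0.0781). Elovl6 was nearest to Apold1 (0.167), G2e3 (0.184) and Ccdc28b (0.212), and Elovl5 to 0610037P05Rik (0.0841), Rps19-ps3 (0.0944) and Tomm7 (0.108). Fads3 was nearest to the ribosomal protein genes Rpl14 (0.0601), Rps23 (0.0618) and Rpl32 (0.0731), a nearly flat profile that its level near 0 on this scale brings with it.

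The other genes of the path were read in the same fit, by the count called over all loci tested (74.6% either way). Of 9 other desaturases and elongases, 4 were tested, 3 rose and 1 fell, with a median difference of 1.35. Besides Scd3 and Scd4, Degs1, the desaturase that makes ceramide, was at 47.3 ± 3.38 FPKM in Bach2KO and 36.5 ± 1.54 FPKM in WT (SD, n = 3 each), 0.37 higher (limma adjusted p = 0.00226), a call that was lost with equal sums (adjusted p = 0.197). Degs2, which makes phytoceramide, fell to 5.39 ± 0.469 FPKM in Bach2KO, against 17.3 ± 0.895 FPKM in WT (log2 difference -1.60, limma adjusted p = 1.13e-05). Fads6, Elovl2, Elovl3, Elovl4 and Elovl7 stayed under the filter.

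Of 10 genes of the elongation cycle and of electron supply to desaturases, 9 were tested, 6 rose, 1 fell and 2 were not called (median 0.68). Hsd17b12, the ketoacyl-CoA reductase of the cycle, averaged 36.3 ± 4.12 FPKM in Bach2KO and 13.1 ± 1.42 FPKM in WT (SD, n = 3 each), 1.44 higher (limma adjusted p = 5.96e-05). The electron carriers Cyb5a, Cyb5b and Cyb5r3 rose by 0.68, 0.81 and 0.71. Hacd3, a dehydratase of the cycle, fell by 0.32 to 23.7 FPKM in Bach2KO, against 29.6 FPKM in WT. Tecr, the last enzyme of the cycle, was 0.26 higher (limma adjusted p = 0.00261), a call lost with equal sums and with quantile normalization, where its sign turned (-0.03 at the lowest). The list had 5 higher and 2 lower with equal sums, 4 and 2 with quantile normalization and 6 and 2 with median-of-ratios scaling.

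Of 10 genes of fatty acid synthesis, 6 were tested, 5 rose and 1 fell (median 1.56). Fasn, the fatty acid synthase, averaged 60.0 ± 9.21 FPKM in Bach2KO and 17.0 ± 2.21 FPKM in WT (SD, n = 3 each), 1.79 higher (limma adjusted p = 6.31e-05). Acaca, the carboxylase that makes malonyl-CoA, rose by 1.77, its activator Mid1ip1 by 2.40, the citrate carrier Slc25a1 by 1.35 and the citrate lyase Acly by 0.87. Acss2, which makes acetyl-CoA from acetate, fell by 1.76, to 9.41 ± 1.79 FPKM in Bach2KO, against 32.7 ± 2.99 FPKM in WT (SD, n = 3 each).

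Of 16 SREBP and nuclear receptor regulators, 13 were tested, 7 rose, 3 fell and 3 were not called (median 0.14). With equal sums the split was 5 and 5, with quantile normalization 6 and 5 and with median-of-ratios scaling 6 and 3. Srebf1, the SREBP of fatty acid genes, averaged 64.2 ± 1.95 FPKM in Bach2KO and 24.8 ± 0.205 FPKM in WT (SD, n = 3 each), 1.35 higher (limma adjusted p = 2.13e-06). Srebf2, the SREBP of sterol genes, rose by 0.81 and Insig1, a sterol-responsive retention factor of the SREBP path, by 1.89. Rxra, the partner of the liver X receptors, rose by 1.78 and the liver X receptor gene Nr1h3 fell by 0.92 at a level of 0.456 ± 0.0195 FPKM in Bach2KO and 1.32 ± 0.278 FPKM in WT. Nr1h2, the more abundant liver X receptor gene, differed by 0.03 (limma adjusted p = 0.496).

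Of 16 genes of fatty acid activation and uptake, 14 were tested, 8 rose, 2 fell and 4 were not called (median 1.02), with 8 and 4 under each of the 3 other scalings. Dbi, an acyl-CoA binding protein gene, rose by 2.55 and the acyl-CoA synthetase gene Acsl3 by 1.43. Acsbg1, another acyl-CoA synthetase gene, fell by 1.96, to 19.4 ± 0.223 FPKM in Bach2KO, against 76.9 ± 2.32 FPKM in WT (SD, n = 3 each, limma adjusted p = 8.80e-07).

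Of 20 fatty acid oxidation genes, all were tested, 4 rose, 4 fell and 12 were not called (median 0.04), a lower share called than over all loci. Acadl, an acyl-CoA dehydrogenase gene, rose by 0.96, and the electron transfer flavoprotein genes Etfa and Etfb by 0.82 and 1.08. The count of 8 was 5 without Bach2KO replicate 1 and 5 without WT replicate 1. With equal sums the split was 3 higher and 10 lower, with quantile normalization 3 and 7 and with median-of-ratios scaling 3 and 6.

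Of 20 glycerolipid genes, 19 were tested, 14 rose, none fell and 5 were not called (median 0.45), and with equal sums 6 rose and 4 fell, with quantile normalization 9 rose and with median-of-ratios scaling 11. Lpcat3, which places polyunsaturated chains in phospholipids, averaged 40.2 ± 1.80 FPKM in Bach2KO and 21.3 ± 0.131 FPKM in WT (SD, n = 3 each), 0.90 higher (limma adjusted p = 1.28e-05). Mboat1, an acyltransferase gene, rose by 1.33, the lipin gene Lpin2 by 1.29 and the acyltransferase gene Agpat5 by 1.28. Of 15 eicosanoid genes, 5 were tested, 2 rose, 2 fell and 1 was not called (median 0.13), and 3 fell with equal sums or quantile normalization. Alox5ap, needed by the lipoxygenase path, rose by 2.44 and Ptges3 by 1.05, while Hpgds, the prostaglandin D synthase, fell by 1.77. The lipoxygenase gene Alox5 itself stayed under the filter, at a mean of 0.0117 FPKM in Bach2KO and 0.0082 FPKM in WT. Ptges2 fell by 0.39 (limma adjusted p = 0.0160), a call lost without Bach2KO replicate 1. The rise of the proliferation genes given above accompanied all of these lists.

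**Figure D4:**
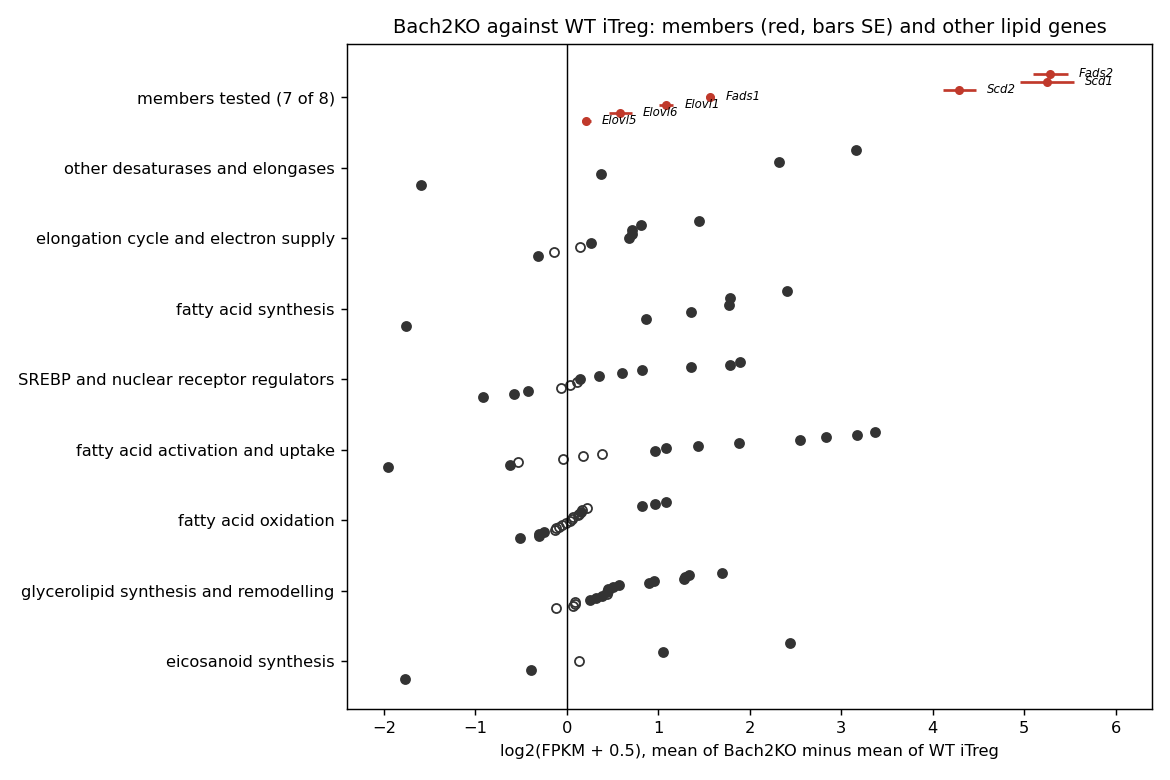
Difference of mean log2(FPKM + 0.5), Bach2KO minus WT iTreg (3 libraries each), for the 7 members in the fit (red, bars 1 SE) and for other lipid genes by list (filled: called at an adjusted p under 0.05; open: not called). Fads2, Scd1 and Scd2 lie to the right of every listed gene, and the fatty acid oxidation genes lie around 0 with a median of 0.04.

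Loci within 50 kb of a member numbered 15, of which 8 were tested, 7 rose and 1 fell. Over all tested loci 41.1% were called higher and 33.6% lower. Scd3, Scd4 and Mir5114 (4.48 higher) were among the 7 that rose. Scd3 and Scd4 were already counted with the other desaturases, and Mir5114 lies within the last exon of Scd2. Cdc20 (3.44) next to Elovl1 rose as well, and so did Fen1 (2.50), a flap endonuclease gene of DNA replication 2267 bp from Fads1. 1810006K21Rik beside Fads1 rose by 0.66 and Med8 beside Elovl1 by 0.19 (limma adjusted p = 0.0350), and the Med8 call was lost under each other scaling and turned to -0.08 with equal sums. Med8 was also lost without Bach2KO replicate 1 or 2 and without WT replicate 1 or 2.

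Peaks and levels were last set side by side for the members. Fads2 and Scd1 differed by 5.28 and 5.25, an order that turned with a pseudocount of 1 (4.60 and 4.72), without Bach2KO replicate 2 (5.39 and 5.48), without WT replicate 1 (5.36 and 5.49) and without WT replicate 3 (5.10 and 5.20). Fads2 had 2 peaks of at most 112.22 in score and Scd1 3 of at most 673.59. Elovl5, with the strongest peak (1178.11) and 6 in all, had the smallest (0.21), and Elovl1, with no peak within 100 kb, differed by 1.08. Scd2, with 9 peaks, differed by 4.29 and Elovl6, with 5, by 0.58. With 1 ChIP library and members chosen by their difference, no relation between these measures was tested.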

How the data were processed

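RNA libraries were aligned to mm9 with TopHat and quantified with Cufflinks from unique 50-bp reads, per the labels' protocols, and the deposited values are FPKM per the file headers. For these tools the version, and also the annotation, is not given in the sources used here. Bach2 peaks were called by MACS 1.4.0beta from 8992019 ChIP and 9999999 input tags at a p-value cutoff of 1e-05, per the file headers, after alignment by Bowtie (submitters' processing notes). In the deposited peak list stand tag counts, a score (-log10 of the p-value multiplied by 10), a fold enrichment ratio and an FDR in percent, all made by the authors. The input has no values of its own.

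The 10 files list the same 23700 loci in different orders and were joined by symbol and position. The authors' scaling was kept and 0.5 added before taking log2. Loci averaging 0.5 FPKM or more in the 6 iTreg libraries, without 72 that had a failed estimate there, entered limma 3.58.1 (R 4.3.3, lmFit, eBayes with trend), two-sided, with Benjamini-Hochberg adjustment over 11403 loci and 0.05 as the threshold. The code was checked on simulated data. Single libraries carry no spread and stayed out of the fit. FPKM carries no read totals, so implied reads come from the authors' confidence bounds and cover counting error only. They were derived only for loci with a single listed transcription start, so their library sums are partial. All libraries carry one run date in the labels. Older symbols (Ptplad1, Cyb5) were matched to Hacd3 and Cyb5a.

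The members and the gene lists were chosen with earlier results of these data known. Genes named from each list are up to 4 called ones with the smallest adjusted p, separate replicates and a higher mean of at least 1 FPKM, the largest fall, and some regulators and enzymes in any case; 3 genes that these rules would name are not reported here. Peaks within 50 kb of a locus were counted from edge to edge. Replicate numbers shared by the genotypes did not pair the libraries. Alternatives were pseudocounts of 0.1 and 1, no filter or one at 1 FPKM, 3 other scalings over loci of at least 300 bp or all loci, other variance settings, a replicate block, each library left out, and other peak thresholds and windows.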

Additional observations from a re-analysis of the deposited data

How the results depend on the processing

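Of the 112 recomputed differences of the 7 members in the fit, 110 kept their sign. Other filters, variance settings and the replicate block leave a member's difference unchanged by construction. Only pseudocounts, scalings and left-out libraries could move it, so the count is no measure of stability. Elovl5 turned to -0.062 with equal FPKM sums and to -0.045 with quantile normalization. The count of all called loci was 7696 to 8587 with 1 library left out. Fatty acid oxidation genes called numbered 13 with equal sums and 5 to 10 with 1 library left out. Eicosanoid genes called were 8 without a filter, and glycerolipid genes called were 9 with quantile normalization. Members past 2-fold in WT iTreg against naive cells were 0 with median-of-ratios scaling, quantile normalization or a pseudocount of 1 and 3 with a pseudocount of 0.1. Peaks within 50 kb were 17 at a fold of at least 10. The cause of these changes was not tested, except that a stricter peak threshold and a missing filter change the number of items by construction.

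Same-numbered libraries deviated together with correlations of -0.038, -0.039 and 0.0051, so the numbers do not pair them. With a replicate block 7836 loci were called in place of 8510 and 5 fatty acid oxidation genes in place of 8, and the calls of Ptges2 and Med8 were lost. Fads3, Fads2 in WT and Scd1 in naive cells rest on so few implied reads that depth limits their ratios.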
